A study of Mus musculus with 6 samples.

Results

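Axl, Kit and Epha3 are 3 of the 3549 genes that the study lists as different between B16 melanoma cells and melan-a melanocytes, where they were found by gene name and chosen by that difference. They are receptor tyrosine kinases, single-pass membrane proteins that carry a ligand-binding part outside the cell and a tyrosine kinase inside it. Binding of a ligand brings the receptors together, they phosphorylate each other, and adaptor proteins then pass the signal to the Ras and phosphoinositide kinase pathways. Axl belongs to the same family as Tyro3 and Mertk and binds Gas6. Kit binds the stem cell factor Kitl and is needed in mouse and human for the survival and migration of melanocyte precursors. Epha3 is an Eph receptor, binds ephrins on neighbouring cells and takes part in cell repulsion and adhesion. In human melanoma, high AXL is known from dedifferentiated tumours, and loss of KIT is common in progressing tumours of the skin.

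The measurements compared untreated B16 cells, a mouse melanoma line, with melan-a cells, a nonmalignant line of mouse melanocytes. The labels give C57/Bl6 as the strain of each. RNA of both lines was hybridized together on each of 6 whole mouse genome arrays, 1 for each biological replicate. B16 RNA carried Cy3 on replicates 1, 3 and 5, where melan-a RNA carried Cy5, and the dyes were exchanged on replicates 2, 4 and 6. B16 cells were grown in DMEM with bovine calf serum. Melan-a cells were grown in RPMI 1640 with fetal bovine serum and a phorbol ester, so line, medium, serum and phorbol ester cannot be told apart in these data. B16 cells have lost the p16 and p19 proteins of the Ink4a locus. The study also reports, as unpublished, an activating N-ras mutation in its B16 strain, and states that the line has no activating BRAF mutation. Each line is a continuous culture that stands for 1 tumour or 1 melanocyte strain, and the replicates are cultures, not animals.

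The study's list names no probe. Each gene was assigned the probes whose mean ratio over the 6 arrays equals the listed average fold within 0.00051, and this gave 1 of the 41174 probes on the array for each gene. The genes and their probes were thus chosen by the mean ratio between B16 and melan-a cells, and that ratio is described below without a test. For a gene represented by several features, the study states that it listed the most changed of them. Any other probes of Axl, Kit and Epha3 could not be named here and were not examined. The levels below are therefore those of the assigned probes, and other probes of the same gene may differ less between the lines. The name is most certain for Axl (NM_009465, chromosome 7, 25756500 to 25788924 in GRCm38.p6), since no other probe lay within 0.01 of its fold of melan-a over B16. Epha3 (NM_010140, chromosome 16, 63543532 to 63864175) had 1 other probe within 0.01, and with the tolerance widened to 0.001 it had 2 candidates. Kit (NM_021099, chromosome 5, 75574987 to 75656722) is the least certain name. Its probe had a fold of melan-a over B16 of 1.852, the nearest other probe one of 1.851, and 45 other probes lay within 0.01. Where in the transcripts these probes lie was not analysed, since their sequences were not used here. Genes of the lists below were assigned probes in the same way, often several. Such candidate probes have like mean ratios by this rule, and some may belong to other genes.

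Of the 3 genes, 2 had less signal in B16 cells and 1 had more. Axl was 0.096 times the melan-a level in B16 cells (mean log2 ratio of B16 over melan-a -3.38 ± 1.08, SD, n = 6 arrays). With the median empty spot subtracted from both signals, its mean log2 ratio was -4.07. Kit was 0.54 times the melan-a level in B16 cells (-0.89 ± 0.27, SD, n = 6). Epha3 was at least 11.5-fold higher in B16 cells, as the melan-a spot was not above background on 1 array and was set to the 95th percentile of the empty spots there (mean log2 ratio 3.53 ± 1.13, SD, n = 6). The measured mean log2 ratio was 3.58 ± 1.17, and 4.30 on 5 arrays with the median empty spot subtracted. The ratios kept the order Axl below Kit below Epha3 on each of the 6 arrays, and no value of one gene overlapped with a value of another. An array measures the RNA of a whole culture, so fewer cells with the transcript and less transcript per cell cannot be told apart.

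The promoters of the 3 genes were searched for short motifs in RefSeq windows of 250 bases before to 50 after a transcript start (GRCm38.p6). The stretches with the GC box GGGCGG, a sequence bound by Sp factors, are shown because the Axl window and a Kit window held it and no Epha3 window did, with the motif in capitals, 5′ to 3′ on the strand of the gene.
Axl, chr7:25788714-25788743, minus strand: GGGCGGaggcagagggggagccagGGGCGG
Kit, chr5:75574877-75574906, plus strand: ggagtgcgacccGGGCGGgagaagggaggg
The Axl window held 2 GC boxes, both in this stretch. Kit has 2 windows, and the highest count in a window was 1. For Epha3 the highest count was 0. On either strand, 35.7% of the 32851 windows of all genes held at least 1. This is a share of single windows, and a gene with more windows has more chances of a match. The E-boxes CATGTG and CACGTG, letters to which the melanocyte factor Mitf can bind, occurred in 14.2% and 7.2% of all windows and in none of the 3 genes. The AP-1 element TGANTCA occurred in 7.8% and also in none. A match describes the letters of the window alone.

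The 6 arrays differed in brightness. The signals of both dyes were summed for each spot, and the median of this sum lay between 779.9 and 4307.5. Spots with a sum of up to 400 were left out, and no array kept fewer than 81.6% of its probe spots. Replicate 1 differed from the others in its day of quantification. The 500 empty spots of an array were brightest on replicate 1, with a 95th percentile of 271.9 for B16 and 287.6 for melan-a, and then on replicate 4, with 251.1 for B16 and 244.5 for melan-a. On the other arrays this percentile lay between 159.5 and 202.3. Of 13 melanocyte markers, 3 were found in the study's list. Oca2, a melanosomal transporter, averaged -2.55 ± 1.71 (SD, n = 6) in the log2 ratio of B16 over melan-a, with 0.06 on replicate 4. Gpnmb, a melanosomal glycoprotein, was 2.08 times the melan-a level in B16 cells on the average of its 4 candidate probes. Pax3, a transcription factor of the melanocyte lineage, was 1.54 times the melan-a level in B16 cells on the average of its candidate probes. Of these, 15 of 18 were past the thresholds given further on. Of 7 keratinocyte markers none was found, and of 7 fibroblast and 7 immune markers 1 each, Col1a1 with a log2 ratio of -2.84 and the lysozyme Lyz2 with -2.49, both lower in B16 on all 6 arrays. Defining markers such as Tyr, Dct and Mitf have no named probe here, so the identity of the lines was not tested with them.

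Axl signal in B16 cells was 288.3, 238.7, 636.9, 724.9, 1668.3 and 898.0 on replicates 1 to 6, against 1173.3, 3305.6, 15785.4, 16123.8, 11316.2 and 5326.6 in melan-a cells on the same arrays. Melan-a cells were brighter on every array, and 1 B16 value, on replicate 5, lay above the lowest melan-a value, on replicate 1. The Axl spot stood above the 95th percentile of the empty spots of its array and dye on 6 of 6 arrays in both lines. In B16 cells the margin was small on replicate 1, with 288.3 against 271.9, and on replicate 2, with 238.7 against 163.6. The B16 signal was 1.26 times the median empty spot on replicate 1 and 12.7 times on replicate 5, against 5.18 and 87.4 times for melan-a.

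As log2 ratios of B16 over melan-a, Axl gave -2.02, -3.79, -4.63, -4.48, -2.76 and -2.57. The difference was smallest on replicate 1 and widest on replicates 3 and 4, where B16 cells had 0.040 and 0.045 times the melan-a level. Replicates 3 and 4 carried opposite dyes. The mean ratio of Axl ranked 9 from the lowest of the 41174 probes, and within single arrays the rank lay between 4 on replicate 3 and 375 on replicate 1. Its SD of 1.08 was larger than that of 98.4% of the probes tested, whose median SD was 0.35. Most of these probes differed far less between the lines. A wide SD was not particular to Axl, as the single-probe markers Lyz2, Oca2 and Col1a1 had SDs of 0.95, 1.71 and 2.04. Without replicate 1 the mean was -3.65 ± 0.95 (SD, n = 5).

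**Figure D1:**
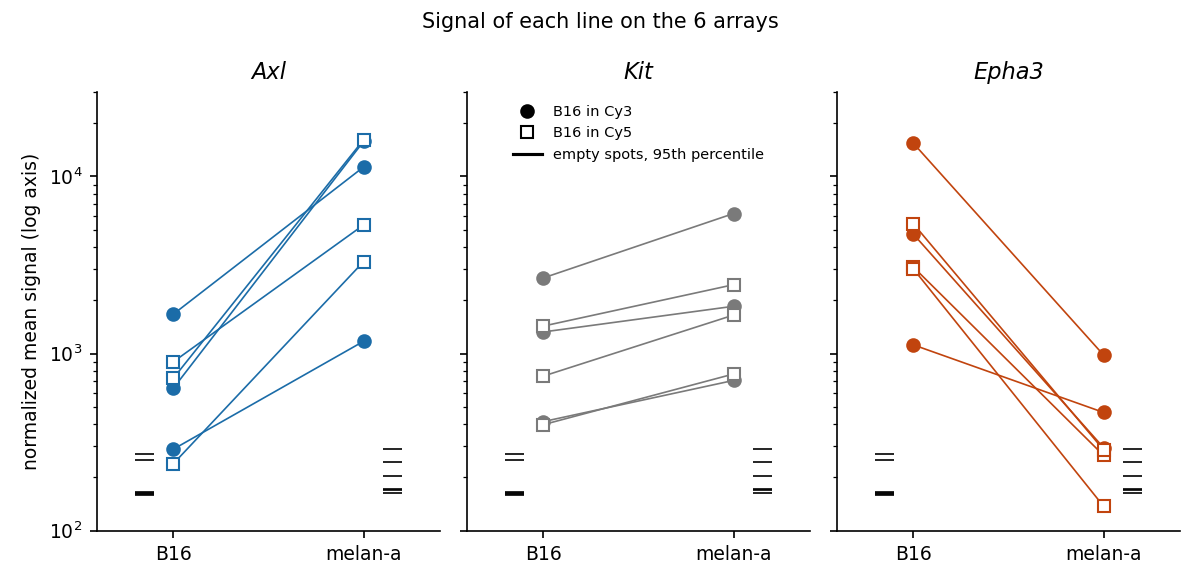
Normalized mean signal (log axis) of the Axl, Kit and Epha3 probes in B16 and melan-a cells, with a line joining both lines on each of the 6 arrays, filled circles for B16 in Cy3 and open squares for B16 in Cy5. Short black bars mark the 95th percentile of the empty spots of each array: the lowest Axl value in B16 was 238.7, and Epha3 in melan-a fell below its bar only on replicate 6, with 137.2.

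Kit had the smallest difference of the 3 genes and the smallest spread. Its signal in B16 cells was 413.0, 396.9, 1324.7, 746.1, 2674.2 and 1430.1 on replicates 1 to 6, against 705.4, 767.0, 1849.9, 1650.3, 6177.5 and 2449.4 in melan-a cells. The signals of the lines overlapped when pooled over arrays, since bright arrays raised both, and within each array B16 cells were lower. All 12 values lay above the 95th percentile of the empty spots.

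The log2 ratios of B16 over melan-a for Kit were -0.77, -0.95, -0.48, -1.15, -1.21 and -0.78. They span 0.716 times the melan-a level in B16 on replicate 3 to 0.433 times on replicate 5. The mean ranked 1113 from the lowest of 41174 probes, so many other probes differed by more. Its SD of 0.27 was below the median SD of the probes tested and larger than that of 30.6% of them. Without replicate 1 the mean was -0.91 ± 0.29 (SD, n = 5).

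Epha3 was near background in melan-a cells and far above it in B16 cells. Its signal in B16 cells was 1119.9, 3080.2, 4724.3, 5408.1, 15405.9 and 3008.2 on replicates 1 to 6, against 465.1, 265.8, 293.9, 285.8, 980.1 and 137.2 in melan-a cells. The lowest B16 value lay above the highest melan-a value, so the lines did not overlap even over arrays of different brightness. B16 cells were above the 95th percentile of the empty spots on 6 of 6 arrays and melan-a cells on 5 of 6. On replicate 6 the melan-a spot was at 137.2 against 171.2 for the empty spots, 0.95 times their median, so that the ratio of this array is a lower bound, at least 4.14 in log2. On the 5 other arrays the melan-a spot was at 1.51 to 7.57 times the empty median, against 4.89 to 117 times for B16 on those arrays.

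The log2 ratios of B16 over melan-a for Epha3 were 1.27, 3.53, 4.01, 4.24, 3.97 and 4.45. Replicates 2 to 6 lay between 3.53 and 4.45 and replicate 1 lay apart from them, at 2.41 times the melan-a level in B16 against 11.6 to 21.9 times. The mean ranked 2 from the highest of 41174 probes, and on replicates 5 and 6 no probe had a higher ratio. On replicate 1 its rank from the highest was 656. Its SD of 1.17 was larger than that of 99.0% of the probes tested, most of which differed far less between the lines. Without replicate 1 the mean was 4.04 ± 0.34 (SD, n = 5).

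**Figure D2:**
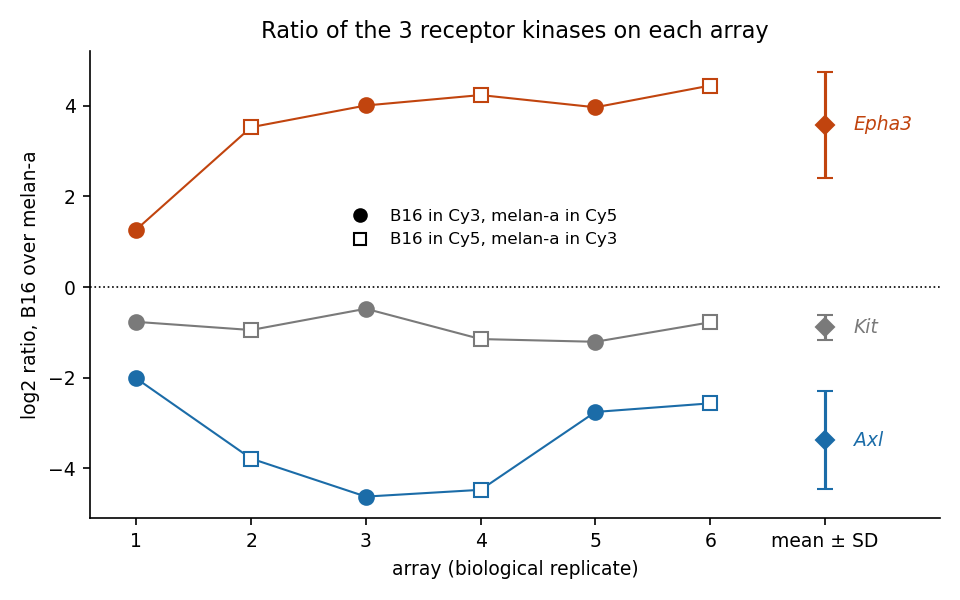
Log2 ratio of B16 over melan-a for Epha3, Kit and Axl on each of the 6 arrays (filled circles, B16 in Cy3; open squares, B16 in Cy5), with the mean and SD of the 6 values at the right; the lines only join the points of a gene. Epha3 lies above 0 and Kit and Axl below 0 on all 6 arrays, and on replicate 1 Epha3 (1.27) and Axl (-2.02) are nearest to 0.

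The sign was the same on all 6 arrays for each gene. Of the 32427 probes with a value on 6 arrays, 8.37% were lower in B16 on every array, as Axl and Kit were, and 10.8% were higher on every array, as Epha3 was. Because the mean ratio chose the probes, these shares are given as the background and nothing is read from the agreement.

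**Figure D3:**
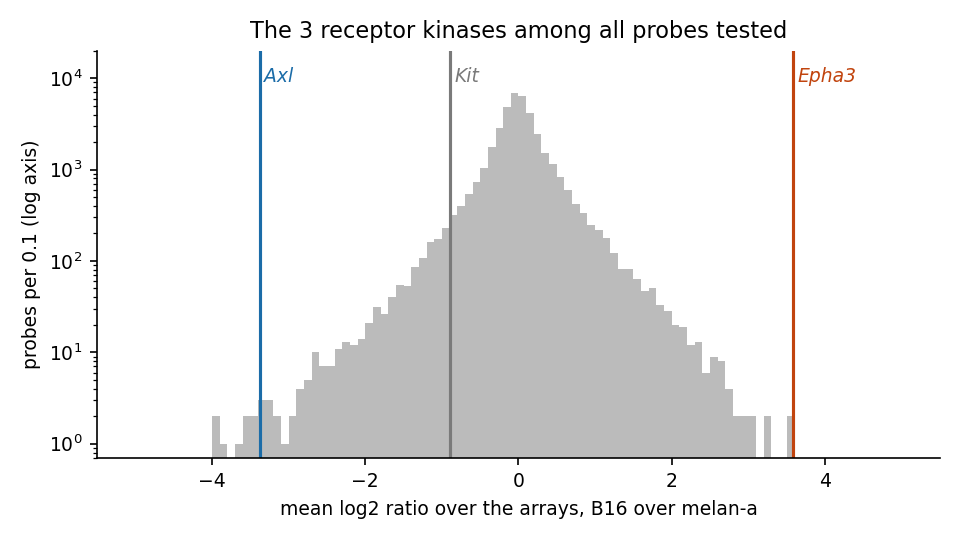
Number of probes per 0.1 of mean log2 ratio of B16 over melan-a (log axis) for the 39687 probes tested, with the means of Axl, Kit and Epha3 as vertical lines. Axl (-3.38) and Epha3 (3.58) lie in the outer ends of the distribution and Kit (-0.89) in its lower flank.

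The dye each line carried is balanced over the arrays, 3 against 3. The change of the ratio with the labelling is therefore independent of the mean that named the probes, and it was tested. The test asks whether the difference between the lines depended on the dye. The study, however, listed genes by SAM, which weighs the mean ratio against its spread over these same arrays. A labelling difference adds to that spread, so the listing favoured genes with a small one. Small labelling differences, and a sign shared by both labellings, are thus partly a result of the choice. For Axl the mean log2 ratio of B16 over melan-a was -3.61 ± 0.97 with B16 in Cy5 and -3.14 ± 1.34 with B16 in Cy3 (SD, n = 3 each). The labelling difference was -0.47 (SE 0.66, limma adjusted p = 0.8 over all probes tested). For Kit the means were -0.96 ± 0.18 with B16 in Cy5 and -0.82 ± 0.37 with B16 in Cy3, a difference of -0.14 (SE 0.26, limma adjusted p = 0.86). For both genes the labelling difference was smaller than its SE, and the difference between the lines had the same sign under both labellings.

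For Epha3 the means were 4.08 ± 0.48 with B16 in Cy5 and 3.08 ± 1.57 with B16 in Cy3, a difference of 0.99 (SE 0.66, limma adjusted p = 0.55). The wide SD with B16 in Cy3 contains replicate 1, and without it the labelling difference was 0.09. None of the 3 genes passed in limma, and none had an unadjusted p under 0.05. Of 39659 probes tested for the labelling, 16 passed at an adjusted p under 0.10, which is 0.0403% (0.00252% with a higher and 0.0378% with a lower ratio in the arrays with B16 in Cy5). Without the adjustment, 5222 had a limma p under 0.05. The 16 therefore do not bound the number of probes that the dye affected.

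The genes whose ratios were most like those of the 3 receptors were sought among 350 genes named by a single unshared probe with values on 6 arrays, by the root mean square (RMS) of the difference over the arrays. Nearest to Axl were Hspb8, a small heat shock protein, with an RMS difference of 0.27 in log2, the serine protease Prss23 with 0.35 and the choline transporter Slc44a1 with 0.48. Hspb8 gave -4.62 on replicate 3 and -2.58 on replicate 1, and Prss23 -4.50 and -2.01. These genes were picked for their likeness over the same 6 values, so nothing is read from it. Nearest to Kit were Gnao1, an alpha subunit of heterotrimeric G proteins, with 0.23, Ankrd46 with 0.32 and Mro with 0.37.

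The genes nearest to Epha3 had larger RMS differences. This measure includes the difference in mean, and the mean of Epha3, 3.58, ranked 2 from the highest of the 41174 probes. The means of its 3 nearest genes were 2.94, 3.05 and 3.25. Xlr4b had an RMS difference of 0.77, the mitotic cyclin Ccnb1 one of 0.82 and the DNA topoisomerase Top2a one of 0.99. On replicate 1, where Epha3 was at 1.27, Xlr4b was at 0.99, Ccnb1 at 1.57 and Top2a at 1.82. They too were picked for likeness over these arrays. The 6 points of each gene share the same arrays and RNA, and the probes compared were named by their mean ratio.

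**Figure D4:**
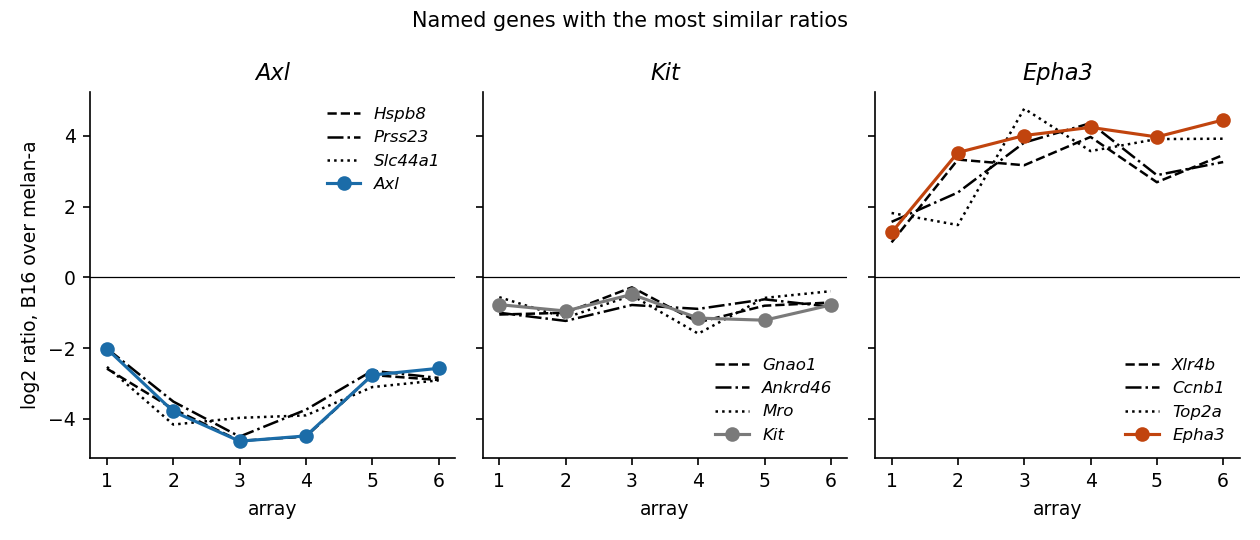
Log2 ratio of B16 over melan-a on the 6 arrays for Axl, Kit and Epha3 (points with coloured lines) and for the 3 named genes nearest to each (black lines). Hspb8 and Prss23 follow Axl closely, with RMS differences of 0.27 and 0.35, and all genes in the Epha3 panel lie below 2 on replicate 1.

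Of 58 receptor tyrosine kinases, 11 were found in the study's list, Axl, Kit and Epha3 among them. Most listed folds match several probes, which agree in mean ratio by the matching and need not all belong to the gene. Their agreement is therefore no added evidence. A gene was counted only where every candidate probe passed in limma, at a fold over 1.5 and an adjusted p under 0.10. By this rule 2 kinases were higher in B16 cells and 6 were lower, and 3 were undecided. Over all 39687 probes tested, 6.31% passed as higher in B16 and 5.23% as lower. The study chose the listed genes on these same arrays, and 88.9% of the probes past a fold of 1.5 passed, so these counts, and those of the ligands, adaptors and regulators below, are no independent evidence of a direction. The median log2 ratio of B16 over melan-a was -0.86 over the 8 kinases found besides Axl, Kit and Epha3, against -0.009 over all probes tested. The list holds only genes past a fold of 1.5 in either direction. The median of the kinases thus follows how many of them are listed as lower or higher, and nothing is read from it.

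The kinases lower in B16 besides Axl and Kit were Fgfr3, Ephb2, Ephb6 and Ddr1. The fibroblast growth factor receptor Fgfr3 had a single candidate probe, with log2 ratios of B16 over melan-a of -1.54, -1.29, -1.17, -2.17, -0.18 and -0.39 on replicates 1 to 6. All 6 values were negative and averaged -1.12, or 0.46 times the melan-a level in B16. Among the Eph receptors, Ephb2 averaged -0.76 with 5 of 5 candidate probes past the thresholds, and Ephb6, whose kinase part is inactive, averaged -1.11 with 2 of 2. Both were opposite in sign to Epha3. The collagen receptor Ddr1 averaged -1.19 with 2 of 2 candidates, which it shares with the growth factor Hbegf.

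The other collagen receptor, Ddr2, was the second kinase counted as higher in B16 beside Epha3. Its 4 candidate probes, matched to the same listed fold, averaged 1.38, or 2.61 times the melan-a level in B16, and all 4 passed. Not every candidate passed for the hepatocyte growth factor receptor Met, with a mean log2 ratio of 0.66 and 10 of 11 candidates passing. The same held for the vascular endothelial growth factor receptor Kdr (-0.75, 6 of 7) and the insulin-like growth factor receptor Igf1r (-0.96, 1 of 2). Tyro3 and Mertk of the Axl family, and the other EphA receptors, were not found in the list and have no value here.

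**Figure D5:**
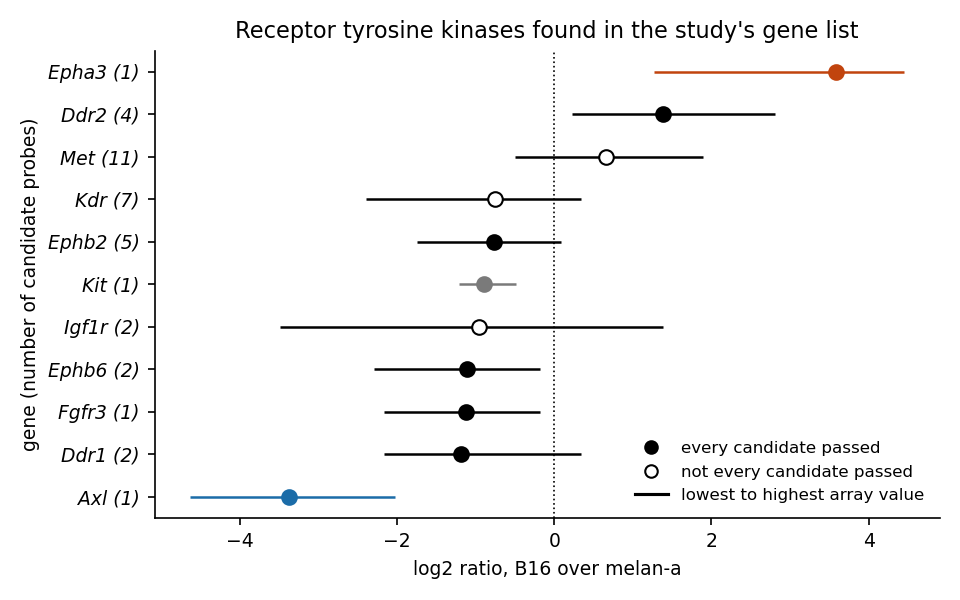
Mean log2 ratio of B16 over melan-a for the 11 receptor tyrosine kinases found, with the number of candidate probes in brackets and a line from the lowest to the highest array value over those candidates; open points mark genes of which not every candidate passed. Epha3 (3.58) and Axl (-3.38) lie apart from the other 9, which range from -1.19 for Ddr1 to 1.38 for Ddr2.

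The 11 ligands searched for, Gas6, Pros1, Kitl and the ephrins, are those of the receptor families. Not each of them need bind Axl, Kit or Epha3 itself. None was found in the study's list under its symbol, so no value can be given for them. A list of 48 genes held ligands of other receptor tyrosine kinases and members of the ligand families, not all of which need act as ligands. Of these 8 were found, of which 6 were lower and 1 was higher in B16, and 1 was undecided, beside 5.23% lower and 6.31% higher over all probes tested. The one that was higher, chosen here after its value was seen, was the Tek receptor ligand Angpt2, with a mean log2 ratio of 1.10 and 7 of 7 candidates past the thresholds. The platelet-derived growth factor chain Pdgfb had the largest change of the 8. Its log2 ratios of B16 over melan-a were -0.80, -1.48, -3.03, -3.34, -1.41 and -1.32, with a mean of -1.90, and the widest differences fell on replicates 3 and 4, as for Axl. The macrophage growth factor Csf1 averaged -1.61 over 3 candidates, Fgf1 -1.37 over 2 and the epidermal growth factor receptor ligand Hbegf -1.19 over 2.

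Of 60 adaptors and signalling proteins downstream of the receptors 8 were found, of which 4 were lower and 1 was higher in B16, and 3 were undecided, beside the same 5.23% and 6.31% over all probes. The adaptor Sh2b2 averaged 0.82, with all 11 candidates past the thresholds. The insulin receptor substrate Irs1 (-0.75) shares its candidates with Kdr, and the kinase Jak2 averaged -0.69 with 4 of 6 passing.

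Of 35 negative regulators of receptor signalling 9 were found, of which 5 were lower and 1 was higher in B16, and 3 were undecided, again beside 5.23% and 6.31%. Lrig1, a membrane protein that lowers the level of several receptor tyrosine kinases, averaged -1.82 on its single probe, with -3.43 on replicate 3 and -0.06 on replicate 1. The Cbl-binding adaptor Sh3kbp1 averaged -1.12 over 2 candidates, and the membrane protease Adam10, which sheds receptors and ligands including ephrins, -1.07 over 4. The Ras GTPase-activating protein Rasa1 averaged 1.02 over 9 candidates, all past the thresholds. Axl, Epha3, Lrig1 and Pdgfb were all nearest to 0 on replicate 1, while Kit was nearest to 0 on replicate 3 and Fgfr3 on replicate 5. Of the single-probe markers, Col1a1 was nearest to 0 on replicate 6 and Lyz2 and Oca2 on replicate 4. Oca2 was farthest from 0 on replicate 1, at -4.94. The median absolute log2 ratio of the probes tested was 0.269 on replicate 1, within the range of 0.222 to 0.387 over the 6 arrays. The part of the separate quantification of replicate 1 in these values was not tested, and the values without it are given above for the 3 receptors.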

How the data were processed

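The 6 dye-swap arrays of B16 and melan-a RNA were analysed. The authors quantified them with ImaGene 6.0.1 and, per the file headers, deposited log2 signals of each dye after global lowess normalization (smoothing 0.2) without background correction. The dyes were read from the image names, since replicate 3 lists Cy5 first. The deposited log2 ratios of the series matrix run melan-a over B16, and its columns of replicates 4 and 5 hold each other's array values, so the array files were used. Spot flags are unexplained and were not used.

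Log2 ratios of mean signals were turned to B16 over melan-a. Only spots whose summed signal exceeded 400 were kept (the study set this limit after background subtraction), spots of a probe were averaged, and 39687 probes with values on at least 3 arrays were tested with limma 3.58.1 in R 4.3.3 (one-class model, and the labelling as a coefficient), with Benjamini-Hochberg adjustment. The fits were tested on simulated data. The number of arrays limits the precision. Alternatives changed the signal, limit, centring, scaling, source, test and arrays.

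Of 3549 listed entries 2381 have a symbol, and the average fold, the study's own comparison, served only to assign probes. The members and lists were chosen with earlier results of these data known. Named are the 3 receptors, each receptor tyrosine kinase and each of their ligands found, up to 4 members of the other lists with the largest mean ratio, and the 3 nearest genes of each receptor. A gene that this rule takes is not reported here. Gene lists of 13 melanocyte, 7 keratinocyte, 7 fibroblast and 7 immune markers were counted too. Python 3.11.15 with pandas 2.3.3, numpy 2.4.6, scipy 1.17.1 and matplotlib 3.10.9 was used.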

Additional observations from a re-analysis of the deposited data

Results flagged for a closer look

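The log2 ratio of B16 over melan-a for Epha3 was 1.27 on replicate 1, far from the 5 other arrays, the nearest of which was at 3.53. The gap made up 0.711 of the whole range, above Dixon's 95% critical value for 6 values. Of 20 genes examined in this way, all with a single probe, 1 passed this value, and chance flags about 1 in 20. On this array the B16 signal of Epha3 was the lowest of the 6, at 1119.9, and the melan-a signal the second highest, at 465.1, and the array was quantified on another day.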

How the results depend on the processing

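The mean ratios of Axl, Kit and Epha3 kept their sign and moved by less than 1 SD under all 45 alternatives run. Many of these could not give another outcome. Without 1 array, or within 1 labelling, values of the same sign are averaged, and the mean cannot move by 1 SD. No limit on signal, a limit of 800 on the summed signal and the series matrix returned the same means. The 45 are thus no count of independent checks. Leaving out 1 array gave -3.65 to -3.12 for Axl, -0.97 to -0.83 for Kit and 3.41 to 4.04 for Epha3. Median signals gave -3.56, -1.07 and 4.10, and subtraction of the empty-spot median, added after seeing the data, -4.07, -1.10 and 4.30, the last on 5 arrays. The labelling differences, none past the threshold, changed sign in some settings. That of Axl was 0.14 with equal array spread (added after seeing the data), 0.67 in the series matrix, where 2 columns of opposite labelling are exchanged, and 0.08 without replicate 1 (range -1.22 to 0.08 over arrays left out). That of Kit was 0.03 with equal spread and 0.03 without replicate 3 (range -0.33 to 0.03). That of Epha3 kept its sign, with 0.09 without replicate 1 (range 0.09 to 1.46 over arrays left out) and 1.62 with median signals. Over these settings the limma adjusted p ranged from 0.51 to 1.0 for Axl, 0.64 to 1.0 for Kit and 0.31 to 1.0 for Epha3.

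Over all probes, 2504 were higher and 2076 lower in B16, and leaving out 1 array gave 2011 to 2815 and 1576 to 2235. Without the replicate block, that is with the signals of both lines fitted unpaired although they share an array, limma called 0 higher and 5 lower (748 and 637 at an unadjusted p under 0.05, against 5111 and 4357 with the array as the pair), and one-class SAM with the pairs called 2580 and 2122. The probes with a labelling effect in limma numbered 16 (5222 at an unadjusted p under 0.05), and 40 with equal spread. In the series matrix they numbered 0 (586 at an unadjusted p under 0.05). With 1 array left out they numbered 0 to 58, 0 without replicate 5 (4648 at an unadjusted p under 0.05) and 58 without replicate 6. The cause was not tested, apart from the exchanged columns. Candidate probes stayed at 1, except 2 for Epha3 at a tolerance of 0.001. Counting kinases with at least 1 candidate passing gave 3 higher and 8 lower. Signal over background limits the ratios of Axl in B16 on replicates 1 and 2 (1.26 and 1.72 times the empty median) and of Epha3 in melan-a on replicates 1, 2, 3, 4 and 6 (0.95 to 2.2 times).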
